A study of Macaca mulatta with 28 samples.

Results

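The genes described here belong to the families of proteins that store neurotransmitter in synaptic vesicles and fuse those vesicles with the membrane of the nerve terminal. Not all of them act there: STX5 of the Golgi, STX17 of autophagosomes and STX18 of the endoplasmic reticulum, among others, serve other membranes. The name release genes, used below for the whole set, is therefore only a label. They were chosen by gene symbol: the numbered synaptotagmins (SYT) and syntaxins (STX), VAMP1 to VAMP8, the numbered STXBP genes, 5 SNAP genes (SNAP23, SNAP25, SNAP29, SNAP47 and SNAP91), SYN1 to SYN3, SV2A to SV2C, CPLX1 to CPLX4, RIMS1 to RIMS4 and the UNC13 genes. Of 15521 genes in the table, 63 matched, and 62 of them reached 10 normalized reads in at least 5 of 28 libraries, out of 13022 genes that did. STX19, the gene that failed, reached that value in 2 libraries. UNC13B was the only UNC13 gene analysed here.

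The RNA was taken from tissue blocks that contain the central amygdala (CeA), cut out by anatomical landmarks, of 28 male rhesus macaques given the choice to drink ethanol, with 1 library for each animal. Drinking was induced with 4% (w/v) ethanol over about 90 days, and free access followed for over 12 months at 22 hours per day. The labels divide the animals by intake into 6 very heavy drinkers (VHD: over 3 g/kg a day on average, and over 4 g/kg on 10% of days or more), 7 heavy drinkers (HD: 3 g/kg or more on 20% of days or more), 5 binge drinkers (BD: 2 g/kg or more on 55% of days or more, with a blood ethanol of 80 mg/dl or more in every year) and 10 low drinkers (LD: none of these). VHD and HD animals (13) are called heavy below, BD and LD animals (15) low. All 28 animals drank ethanol, so no comparison is with animals that never drank. Cohort 4 held 1 HD, 3 BD and 4 LD animals, aged 8.24 years at induction and 9.98 years after open access. Cohort 5 held 4 VHD and 3 HD animals (5.63 and 7.15 years), cohort 7a 2 VHD, 2 HD, 1 BD and 3 LD animals (4.18 and 5.70 years), and cohort 7b 1 HD, 1 BD and 3 LD animals (5.69 and 7.18 years). VHD and LD animals were therefore found together only in cohort 7a, and cohort 5 held no low drinker.

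A vesicle fuses when a SNARE protein on its own membrane (a VAMP) zips up with SNAREs on the target membrane (a syntaxin and SNAP25). Proteins of the Sec1/Munc18 (STXBP) and Munc13 (UNC13) families guide that assembly, RIM proteins hold vesicles at the active zone, complexins clamp the partly assembled complex, and synaptotagmins sense the calcium that triggers release. Synapsins tether the reserve pool and SV2 proteins are glycoproteins of the vesicle membrane. Several of these families have a pair of close relatives used by different neurons, and the CeA itself is made up mostly of GABAergic projection neurons that resemble those of the striatum, beside cortex-like amygdala nuclei rich in glutamatergic neurons.

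Sequencing depth, as reads counted on gene exons, was 1910514 in the shallowest library, 16444833 at the median and 25928489 in the deepest. Gene values below are in normalized reads, of which 1.82 to 24.1 stood for 3 actual reads, depending on the library. The 3 shallowest libraries (BD, HD and LD replicate 1) all belonged to cohort 4. The chosen genes took 0.936% to 1.44% of a library's reads. Markers of GABAergic neurons were high in every block: GAD1 ranged from 4183 to 10471 and GAD2 from 2528 to 10536 normalized reads. Other markers varied far more. TBR1, a transcription factor of cortical glutamatergic neurons, ranged from 0 to 694, and SLC17A6, a vesicular glutamate transporter, from 13.5 to 3909. The peptide precursor PENK, counted here among striatal markers, ranged from 1161 to 32856, and CHAT, which makes acetylcholine, from 0 to 1687. In such blocks, fewer cells of a type and less RNA per cell cannot be told apart.

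Levels were compared between genes as normalized reads per kilobase of exon, averaged over the 28 libraries. Of the neuronal fusion core, SNAP25, the target-membrane SNARE of nerve terminals, was highest of the 62 genes at 9444 per kilobase. Its vesicle partner VAMP2 reached 2635 (rank 5), against 96.6 for VAMP1, a relative prominent in brainstem and spinal cord. Their syntaxin partner STX1A stood at 1019 (rank 13). Several relatives that serve the cell surface or inner membranes of all cells were lower: SNAP23 was at 135, SNAP29 at 164, VAMP3 at 459 and STX4 at 177 per kilobase. Other syntaxins came nearer to STX1A, with STX12 at 980 and the endosomal STX7 at 731. The immune syntaxin STX11 (5.26), STXBP2 (14.05), which acts in blood cells and secretory epithelia, and VAMP8 (23.7) were near the bottom of the range.

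Among the calcium sensors, SYT1, the fast sensor of most forebrain neurons, led at 5707 per kilobase, and SYT2, the fast sensor of hindbrain and many fast-firing neurons, stood at 122. SYT11 (3952) and SYT4 (2419), relatives that do not bind calcium as SYT1 does, ranked next after SYT1 among the 15 synaptotagmins. SYT7, a slow high-affinity sensor, was at 199.5 and SYT10 at 137. Of the complexins, CPLX2 (2032) exceeded CPLX1 (352), and CPLX3 (45.5) and CPLX4 (14.1), best known from retinal ribbon synapses, were low. RIMS1, RIMS2 and RIMS3 lay close together at 611, 606 and 579.6, and UNC13B was at 259. SYN2 (1553) and SYN1 (1084) were far above SYN3 (73.4). Within the SV2 family the order was SV2A (1899), SV2C (953) and SV2B (519), with the last 2 overlapping widely between libraries.

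**Figure D1:**
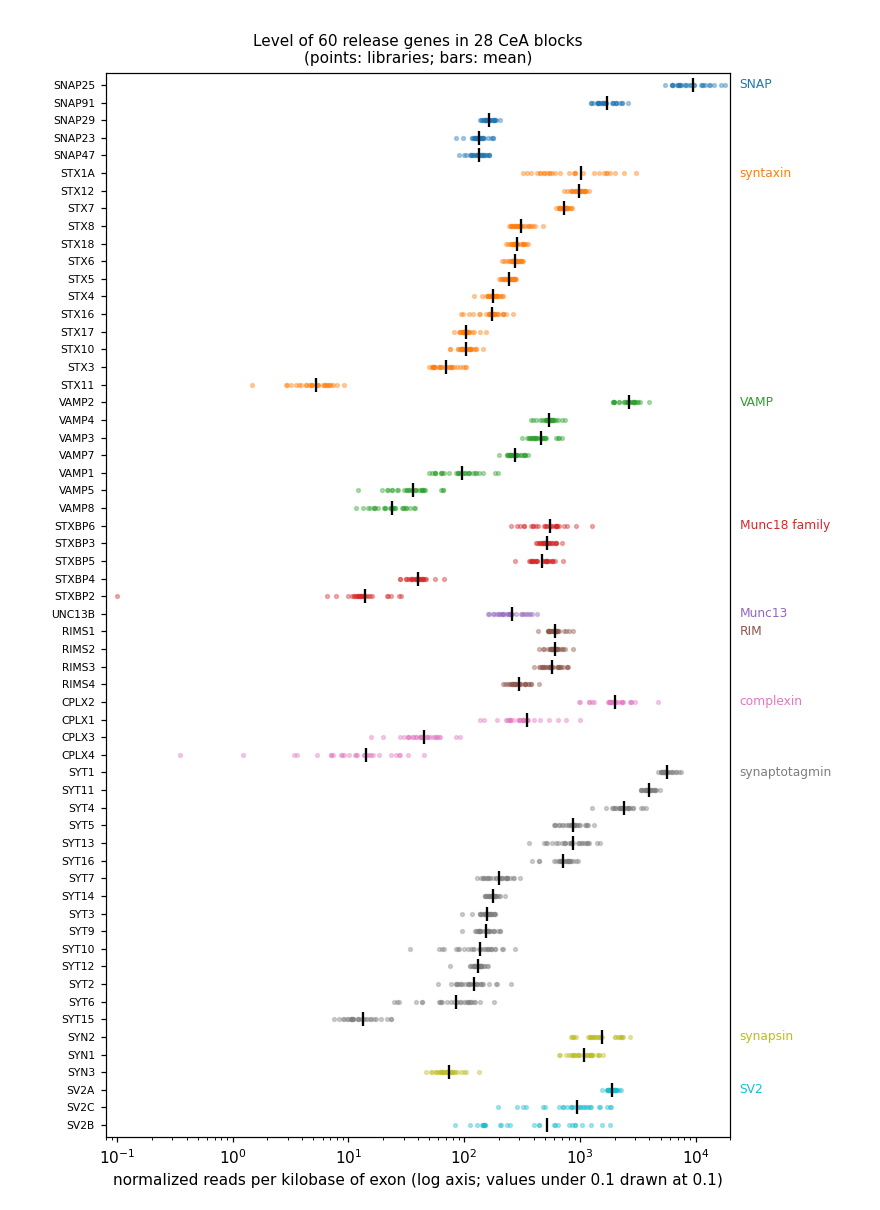
Normalized reads per kilobase of exon on a log axis for 60 of the 62 genes, by family; each point is 1 of 28 libraries and the black bar is the mean. SNAP25 and SYT1 are highest, SYT1 with a 1.61-fold and SNAP25 with a 3.29-fold range. SV2B, SV2C, STX1A and CPLX4 spread more widely, over 21.5-, 9.36-, 9.53- and 128-fold, and STXBP2 is at 0 in its lowest library.

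Genes are placed as the deposited exon table gives them, in a build not named by any source used here. SV2A lies at chr1:123849629-123864013, SV2B at chr14:69216102-69410044, SV2C at chr5:72618168-72812844, STX1A at chr7:42147039-42167479 and SNAP25 at chr15:43114315-43201295. Exons of SYN1 overlap those of ARAF and exons of VAMP1 those of TAPBPL in that table, so part of the reads of SYN1 and VAMP1 may be counted for either gene. The spans of SYN1, SYN2 and SYN3 also overlap those of TIMP1, TIMP4 and TIMP3, small genes that lie inside the introns of synapsins.

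The coefficient of variation over the 28 libraries had a median of 20.5% in the 62 genes and 18.4% in all 13022 genes. The most constant of the 62 were STX7, an endosomal syntaxin (8.05%), SV2A (8.49%), SYT14 (9.33%), SYT11 (9.56%) and STX5, a syntaxin of the Golgi (9.66%). The most variable were SV2B (90.2%), CPLX4 (72.1%), STX1A (69.4%), CPLX1 (52.4%) and SV2C (47.2%). Both ends of this order thus held SV2 proteins: SV2A ranged from 6814 to 9947 normalized reads over the libraries, SV2C from 461 to 4315 and SV2B from 933 to 20063. STX1A ranged from 687 to 6539. CPLX4 ranged from 0.688 to 88.2, so that in its lowest libraries it lay below the value of 3 reads.

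SV2B had 1253, 2125 and 10171 normalized reads as lowest, median and highest value in VHD animals, 1595, 6616 and 20063 in HD animals, 1630.2, 1687, 2303, 8963 and 17196 in the 5 BD animals, and 933, 4897 and 13981 in LD animals. STX1A had 687, 1115 and 3630.5 in VHD animals, 964, 1911 and 6539 in HD animals, 904, 1034, 1149.8, 3431 and 5061 in BD animals, and 970.4, 1917 and 3862 in LD animals. As in the sentences on other genes below, the 5 BD animals are given one by one and the other categories by lowest, median and highest value. Every category held both high and low blocks for these 2 genes, and the 4 ranges overlapped. SV2C had 744, 2979.6 and 4315 in VHD animals, 461, 1954 and 2923 in HD animals, 667, 1551, 1651, 2626 and 2729 in BD animals, and 1109, 2024 and 4273 in LD animals, again with all ranges overlapping. The blocks with most SV2B had least SV2C: HD replicate 5 held 20063 of SV2B and 461 of SV2C, whereas LD replicate 8 held 933 and 4273. SV2A was at 8903 in HD replicate 5 and 7799 in LD replicate 8.

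These swings were set beside a score of glutamatergic and cortical neurons, the mean of the centred log2 values of 8 markers, none of them a release gene. For each of 13014 genes outside the score, Pearson's r and Spearman's rho with the score were computed over the 28 animals, with permutation p-values adjusted over all these genes. Of the 62 release genes, 21 (33.9%) had adjusted p-values of both r and rho under 0.05 and were higher in blocks with more of the score, where 17% of all genes were, and 10 (16.1%) were lower, where 18.4% of all genes were. The relation had the same sign in each of the 3 cohorts with at least 6 animals for 26 of these 31 genes. No test compared these shares with each other.

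SV2B followed the score most closely (r = 0.918, rho = 0.927, adjusted permutation p = 0.000167 for r, whose unadjusted value of 1e-05 is the smallest that 100000 permutations can give). Without the 2 blocks farthest from the median score its r was 0.930, and within cohorts 4, 5 and 7a it was 0.916, 0.807 and 0.976. SNAP25 came next (r = 0.897, rho = 0.912), with r of 0.900, 0.761 and 0.951 in those cohorts. STX1A had an r of 0.880 and a rho of 0.894, with 0.895, 0.772 and 0.967 in the cohorts. The same adjusted p as for SV2B was reached by SYT13 (r = 0.871, rho = 0.878), by SNAP91, which takes part in recovering vesicles by endocytosis (r = 0.863, rho = 0.879), by SYT11 (r = 0.847, rho = 0.852) and by SYN2 (r = 0.775, rho = 0.802). Without the 2 farthest blocks, the r of these 4 genes lay between 0.769 (SYN2) and 0.860 (SNAP91).

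On the other side, SV2C fell with the score (r = -0.812, rho = -0.879, adjusted permutation p = 0.000167), with r of -0.883, -0.481 and -0.901 in cohorts 4, 5 and 7a and -0.834 without the 2 farthest blocks. SYT2 (r = -0.757, rho = -0.791) and CPLX2 (r = -0.683, rho = -0.696) fell in all 3 cohorts as well. SYT6 (r = -0.664, rho = -0.612) and SYT10 (r = -0.618, rho = -0.625) fell over all animals, but within cohort 5 their r was -0.0408 and 0.0577. Not called were SV2A (r = 0.224, adjusted permutation p = 0.371), VAMP2 (r = 0.201, p = 0.426), SYN1 (r = 0.196, p = 0.436) and CPLX1 (r = -0.0282, p = 0.924). On the log2 scale, SV2B gained 0.83 per unit of score, STX1A 0.56 and SNAP25 0.29, and SV2C fell by 0.46.

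**Figure D2:**
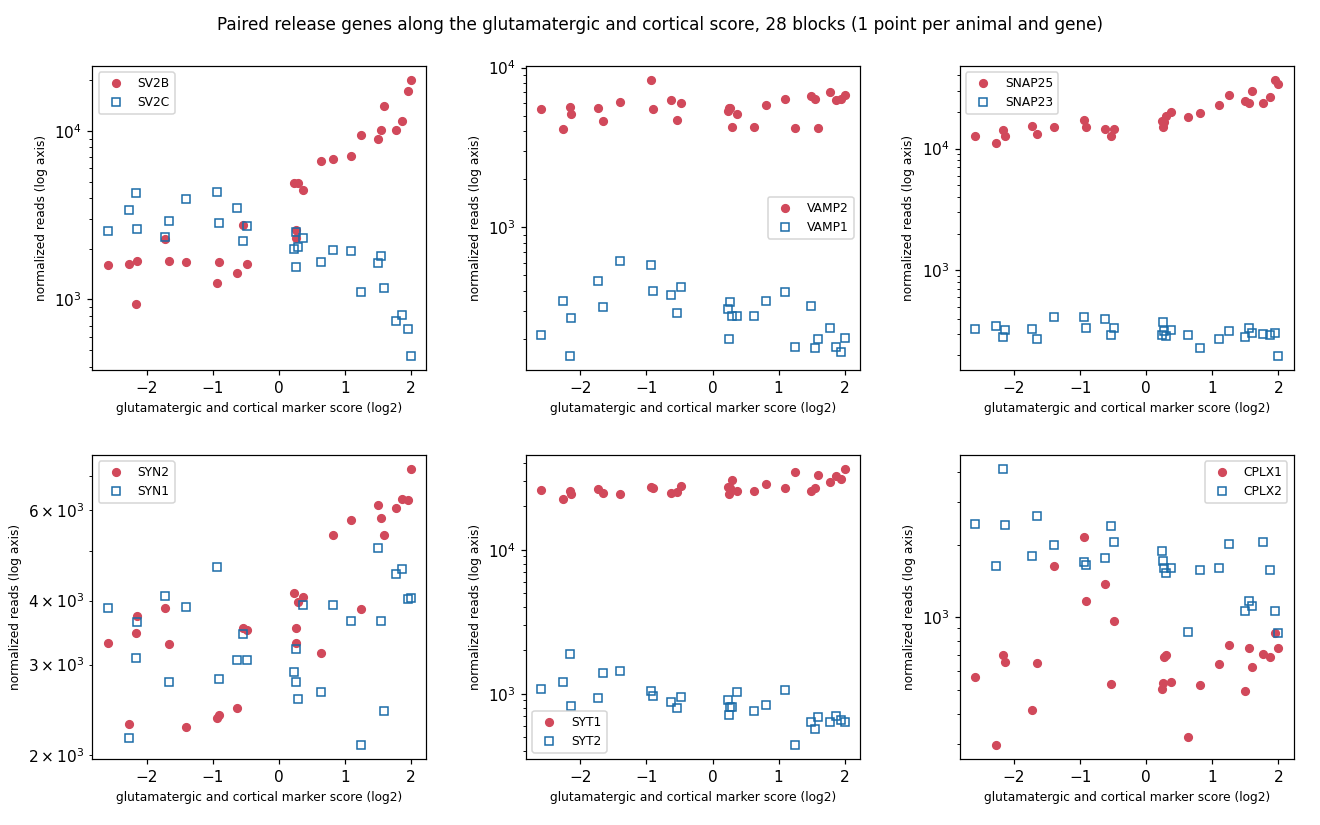
Normalized reads (log axis) of 6 pairs of related release genes against the glutamatergic and cortical marker score (log2) in 28 blocks, 1 point per animal and gene. SV2B rises to 20063 reads where SV2C falls to 461, and VAMP2, SNAP23 and SYN1 show little trend.

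Because both genes of a pair are read from the same library, their ratio per kilobase of exon does not depend on the library's scaling. SV2B relative to SV2C ranged from 0.0457 in LD replicate 8 to 9.11 in HD replicate 5, a 199-fold span, and was above 1 in 8 blocks and below 1 in 20. The highest ratio was in the block with the highest glutamatergic score. SYT1 exceeded SYT2 in all 28 blocks, by 20.97 to 121 times, and CPLX1 stayed below CPLX2 in all 28, at 0.0693 to 0.515 of its level. SYN2 relative to SYN1 ranged from 0.599 to 2.60, and VAMP2 relative to VAMP1 from 14.6 to 56.6. Of 6 such ratios tested, none passed a two-sided permutation test of heavy against low drinkers within cohorts: unadjusted p-values ran from 0.345 (SV2B to SV2C) to 0.899 (CPLX1 to CPLX2), and all were 0.899 after adjustment over the 6. The log2 ratio of SV2B to SV2C was higher in heavy drinkers by 0.08 in cohort 4 and 2.38 in cohort 7a, and the difference was -0.86 in cohort 7b.

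Further single relations between a release gene and the markers of a cell type were computed, 6 in all including SV2B above, with permutation p-values adjusted over the 6. SNAP25 rose with the pan-neuronal score (r = 0.851, rho = 0.839, adjusted permutation p = 3e-05), with r of 0.935, 0.725 and 0.932 within cohorts 4, 5 and 7a and 0.811 without the 2 blocks farthest from the median score. VAMP3, a VAMP found in most cells, rose with the myelin and oligodendrocyte score (r = 0.750, rho = 0.722, adjusted permutation p = 4e-05), with 0.352, 0.945 and 0.915 in the cohorts and 0.635 without those 2 blocks. SV2C rose with the striatal score (r = 0.603, rho = 0.553, adjusted permutation p = 0.00144), with 0.952 and 0.703 in cohorts 4 and 7a and the opposite sign, -0.650, in cohort 5; without the 2 farthest blocks r was 0.575. SYT2 fell with the score of fast-firing neurons (r = -0.513, rho = -0.457, adjusted permutation p = 0.00655), with r of -0.337, 0.521 and -0.801 within cohorts 4, 5 and 7a. Without the 2 farthest blocks, LD replicate 8 and BD replicate 2, its r was -0.350 and no longer passed (permutation p = 0.0799). Neither of these blocks is in cohort 7a. CPLX3, a marker of deep cortical neurons in mouse, showed no relation with the glutamatergic score that passed the test (r = -0.200, rho = -0.229, adjusted permutation p = 0.310).

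Heavy drinkers were compared with low drinkers, the question of intake that the labels pose, with limma on log2(value + 1) and cohort as a term. Cohort 5 held no low drinker, so its 7 animals do not enter the fold of heavy over low once cohort is a term. That fold rests on 1, 4 and 1 heavy drinkers and 7, 4 and 4 low drinkers of cohorts 4, 7a and 7b. Plain means of heavy drinkers below include the 7 animals. No release gene passed an adjusted p of 0.05, and none of the 13022 genes did (0%); edgeR on the recovered reads called 0 genes and DESeq2 called 1, which was no release gene. At an unadjusted p under 0.05 there were 2 of 62 release genes (3.23%) and 544 of all genes (4.18%): 1 was higher, as were 1.9% of all genes, and 1 lower, as were 2.27%. Leaving out 1 animal gave 0 (without BD replicate 4 or HD replicate 5) to 5 (without VHD replicate 5) such release genes. The median log2 fold change was 0.02 over the 62 and 0.00 over all genes, with 36 of the 62 (58.1%) above 0, against 50% of all genes. The intervals were narrow for most: the 95% interval lay within a 2-fold change for 55 of the 62 (88.7%, against 90% of all genes) and within 1.5-fold for 47 (75.8%, against 74.2%). Each p-value comes from limma's test of a fold against the spread between animals that remains after cohort and drinking group, moderated over genes.

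The fusion core differed by less than the spread between animals. SNAP25 had 14432, 16990 and 23576 normalized reads as lowest, median and highest in VHD animals, 12799, 18241 and 34051 in HD animals, 12803, 14600.1, 14933, 24788 and 36785 in BD animals, and 11166, 17721 and 29864 in LD animals; the fold of heavy over low drinkers was 1.09 (95% interval 0.789 to 1.50). VAMP2 averaged 5878 ± 1127 in heavy and 5419 ± 881 in low drinkers (SD, n = 13 and 15), a fold of 0.994 (95% interval 0.835 to 1.18) once cohort was a term, and VAMP1 had a fold of 0.926 (95% interval 0.636 to 1.35). STX1A had a fold of 1.30 (95% interval 0.701 to 2.42), a value whose interval covers 1. Its plain mean was 2111 in heavy and 2206 in low drinkers, so that the higher fitted value appears with the cohort term. The interval of STX1A, whose values span a 9.53-fold range between blocks, was the widest of these.

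For the proteins that act on this core, SYT1 averaged 27509 ± 3552 normalized reads in heavy and 27478 ± 3303 in low drinkers, a fold of 1.03 (95% interval 0.907 to 1.18), and SYT2 had a fold of 0.982 (95% interval 0.747 to 1.29). RIMS1 had a fold of 1.08 (95% interval 0.931 to 1.26). CPLX1, CPLX2 and CPLX3 had folds of 0.896 (95% interval 0.597 to 1.35), 0.869 (95% interval 0.641 to 1.18) and 0.954 (95% interval 0.644 to 1.41), all intervals covering 1. Of the vesicle proteins, SV2A was the most tightly bounded, with 8409.9 ± 675 in heavy and 8285 ± 754 in low drinkers and a fold of 0.992 (95% interval 0.905 to 1.09). SV2B and SV2C had folds of 1.45 (95% interval 0.608 to 3.48) and 0.666 (95% interval 0.403 to 1.10), intervals that leave room for changes of over 2-fold. The higher fitted value of SV2B appears with the cohort term: its plain mean was 5583 in heavy and 5914 in low drinkers. SYN1 and SYN2 had folds of 1.08 (95% interval 0.855 to 1.36) and 1.05 (95% interval 0.735 to 1.50). The direction of 12 of the 16 genes in the plot by category turned under at least 1 other setting. For 10 of the 16 the plain difference of mean log2 values between heavy and low drinkers had the opposite sign to the fold fitted with cohort.

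**Figure D3:**
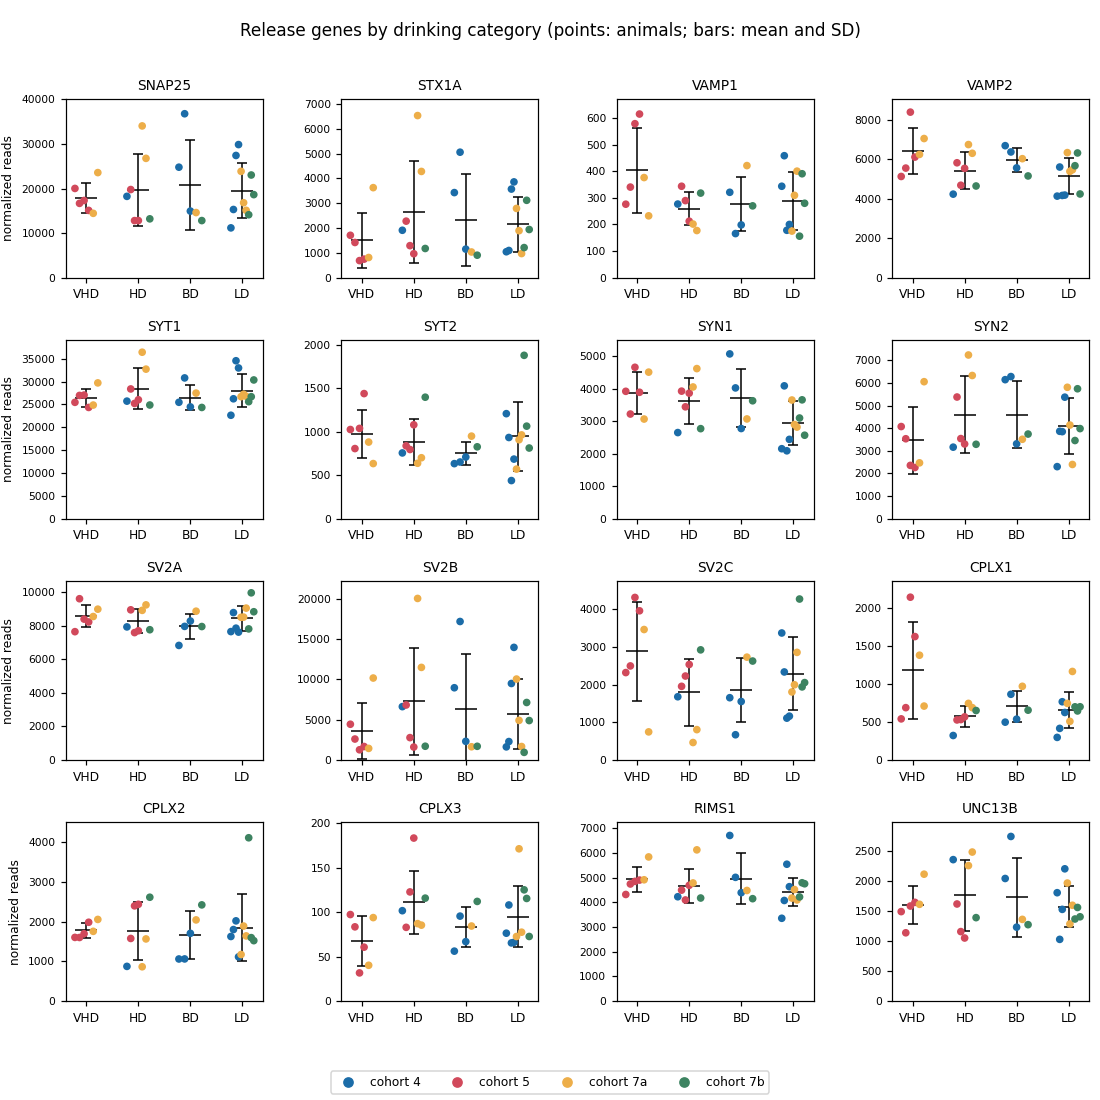
Normalized reads of 16 release genes in VHD, HD, BD and LD animals; points are animals coloured by cohort, bars are mean and SD. The 4 categories overlap in every panel, and SV2B, STX1A and SNAP25 show high blocks in each category.

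The release genes with the smallest p in this comparison were SYT10, UNC13B, CPLX4, STX17 and SYT14, all with an adjusted limma p of 0.998. SYT10, a synaptotagmin linked in mouse olfactory neurons to the release of a growth factor, had 195, 322 and 506 normalized reads in VHD animals, 110.1, 526.2 and 682 in HD animals, 208, 289, 452, 477 and 708 in BD animals, and 323, 480.4 and 899 in LD animals. All 4 ranges overlapped. Its fold of heavy over low was 0.632 (95% interval 0.422 to 0.947), with an unadjusted limma p of 0.0276. The log2 difference was 0.27 in cohort 4, -1.38 in cohort 7a and 0.11 in cohort 7b, so it was negative in cohort 7a alone. With the glutamatergic, GABAergic and striatal scores as further terms, chosen after seeing the data, the log2 fold change was -0.22 in place of -0.66.

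UNC13B, the Munc13 relative that primes vesicles at a subset of synapses, had 1134, 1593 and 2108 normalized reads in VHD animals, 1047, 1613 and 2476 in HD animals, 1227, 1269, 1357, 2036 and 2735 in BD animals, and 1024, 1539 and 2197 in LD animals. The ranges overlapped and the BD value of 2735 was the highest of all. The fold was 1.28 (95% interval 1.01 to 1.61) with an unadjusted limma p of 0.0404, and the log2 difference was 0.46, 0.45 and -0.01 in cohorts 4, 7a and 7b. With the same 3 scores as terms its log2 fold change was 0.15 in place of 0.35. CPLX4, at 0.688 to 54.0 in heavy and 2.45 to 88.2 in low drinkers, had a fold of 0.429 (95% interval 0.182 to 1.02). It rested on 1 to 92 reads per library, with a median of 26.5 and 3 reads or fewer in 3 libraries, and the log2 fold change of -1.22 was -0.71 without HD replicate 6. STX17, a syntaxin of autophagosomes, and SYT14 had folds of 1.13 (95% interval 0.983 to 1.29) and 1.08 (95% interval 0.986 to 1.19). Both depended on HD replicate 1, the single heavy drinker of cohort 4: without it their log2 fold changes were 0.034 in place of 0.17 and 0.047 in place of 0.11.

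**Figure D4:**
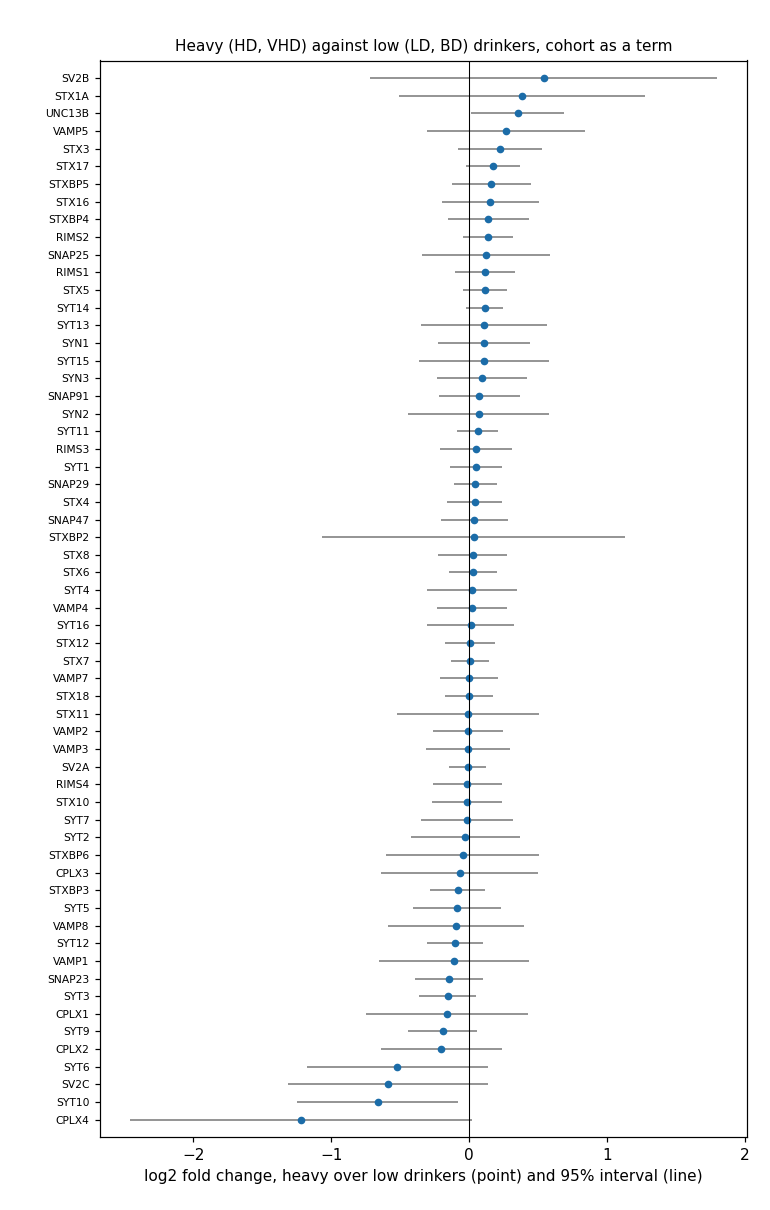
Log2 fold change of heavy over low drinkers (points) with the 95% interval (lines) for 60 of the 62 release genes in limma with cohort as a term. Intervals of all but SYT10 and UNC13B cover 0, and CPLX4, SV2B and STXBP2 have the widest ones.

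Blocks of heavy and low drinkers also differed in markers, none past the adjusted threshold. In this comparison 9 of 10 GABAergic markers had a lower and 7 of 8 glutamatergic markers a higher fitted value in heavy drinkers, with median log2 fold changes of -0.32 and 0.55. All 8 cholinergic and all 5 oligodendrocyte precursor markers were also lower, as were 83.3% of 12 myelin and 80% of 10 striatal markers. In the other lists 37.5% to 60% were lower, and 50% of all genes were. The summed GABAergic markers ranged from 12076 to 27010 normalized reads in heavy and 13051 to 29421 in low drinkers, and the summed glutamatergic and cortical markers from 2292 to 9437 in heavy and 1903 to 8150.1 in low drinkers. Of the defining markers, TBR1 was at 0 in 1 library and NEUROD2 in 2. Beyond the fits with marker scores as terms, the part of these markers in the differences above was not tested.

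VHD animals were then compared with LD animals in a fit with 4 categories and cohort. None of the 62 release genes passed, nor did any of 13022 genes (0%); edgeR called 0 genes and DESeq2 called 4, none a release gene. At an unadjusted p under 0.05, 4 release genes (6.45%) and 1116 of all genes (8.57%) were found, and all 4 were lower in VHD animals, as were 4.37% of all genes: SYT10 (fold 0.481 (95% interval 0.284 to 0.815)), SYT16 (0.734 (95% interval 0.585 to 0.922)), SYT6 (0.479 (95% interval 0.269 to 0.855)) and CPLX3 (0.617 (95% interval 0.388 to 0.981)). The count was 3 to 8 without 1 animal, and 8 without VHD replicate 6. SYT5 followed at 0.776 (95% interval 0.590 to 1.02). Their adjusted limma p-values ran from 0.531 to 0.615.

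SYT16, a synaptotagmin that lacks the calcium-binding residues, had 1187, 1703 and 2186 normalized reads in VHD animals, 2303, 2455 and 2864 in HD animals, 1854, 2060.3, 2102, 2143 and 2519.9 in BD animals, and 1914, 2317 and 2978 in LD animals. The VHD range overlapped the BD and LD ranges but lay below all 7 HD animals, a gap that was noticed in the data and not tested. The share of all genes with such a gap is not given here, so it does not set SYT16 apart. SYT6 had 101, 261 and 381 in VHD animals, 109, 356 and 511 in HD animals, 112, 157, 320, 471 and 561 in BD animals, and 179, 422 and 741 in LD animals, with all ranges overlapping. CPLX3 had 31.6, 72.0 and 97.3 in VHD animals, 82.9, 102 and 183 in HD animals, 56.1, 66.8, 84.4, 95.5 and 112 in BD animals, and 65.4, 76.9 and 171 in LD animals. Within cohort 7a alone, the log2 differences of VHD from LD animals were -1.11 for SYT10, -0.32 for SYT16, -0.90 for SYT6 and -0.67 for CPLX3.

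Myelin and striatal markers moved with the same contrast, and GABAergic markers went both ways. A higher fitted value in VHD animals was also found for 88.9% of 9 fast-firing and 80% of 10 astrocyte markers. Of 10 GABAergic markers, 60% had a lower and 40% a higher fitted value in VHD animals, against 47.5% and 52.5% of all genes. At an unadjusted limma p under 0.05, 40% of them were lower and 10% higher, against 4.37% and 4.2% of all genes. All 12 myelin and oligodendrocyte markers had a higher fitted value in VHD animals (median log2 fold change 0.44), with sums of 69655 to 132850 in the VHD group against 45596 to 99182 in the LD group, and all 10 striatal markers a lower one (median -0.43), with sums of 6882 to 21903 in VHD and 9324 to 63047 in LD animals. With the pan-neuronal, astrocyte and myelin scores as terms, the log2 fold change was -0.01 in place of -0.45 for SYT16, -0.01 in place of -0.37 for SYT5 and -0.18 in place of -0.70 for CPLX3. It was -1.14 in place of -1.05 for SYT10 and -1.04 in place of -1.06 for SYT6. With the glutamatergic, GABAergic and striatal scores, SYT10 had -0.68 and SYT6 -0.75.

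HD animals compared with LD animals gave no release gene and none of 13022 genes (0%) at the adjusted threshold; edgeR called 0 and DESeq2 called 1, no release gene. Unadjusted, 3 release genes (4.84%) and 516 of all genes (3.96%) passed, all 3 lower in HD animals, as were 2.56% of all genes: SV2C (fold 0.568 (95% interval 0.330 to 0.978)), SYT10 (0.640 (95% interval 0.415 to 0.989)) and SNAP23 (0.848 (95% interval 0.721 to 0.998)). SNAP23, a SNAP25 relative found in all cells, had 299, 359.8 and 415 normalized reads in VHD animals, 196, 291 and 326 in HD animals, 281, 306, 319.6, 336 and 374 in BD animals, and 270.2, 311 and 346 in LD animals. The HD and LD ranges overlapped. CPLX4 (0.422 (95% interval 0.173 to 1.03)) and UNC13B (1.28 (95% interval 0.983 to 1.67)) came next. The count depended on single animals: it was 0 without BD replicate 4, HD replicate 2 or 5, LD replicate 2 or 7, or VHD replicate 6, and 7 without HD replicate 7. Without HD replicate 5, the log2 fold change was -0.54 in place of -0.82 for SV2C, -0.35 in place of -0.64 for SYT10 and -0.14 in place of -0.24 for SNAP23. Without HD replicate 6 that of CPLX4 was -0.63 in place of -1.24. In this contrast all 8 cholinergic markers and all 10 GABAergic markers had a lower fitted value in HD animals, 6 of the cholinergic ones at an unadjusted limma p under 0.05, and all 8 glutamatergic markers a higher one. With the glutamatergic, GABAergic and striatal scores as terms, the log2 fold change of SV2C was -0.31 in place of -0.82, that of SYT10 -0.16 in place of -0.64 and that of SNAP23 -0.19 in place of -0.24. The LD animals and the fit are shared with the VHD comparison, so SYT10 in both is not a repeat.

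BD animals compared with LD animals likewise gave no release gene and none of 13022 genes (0%) in limma, edgeR or DESeq2. Unadjusted, 2 release genes (3.23%) and 458 of all genes (3.52%) passed, both higher in BD animals, as were 1.37% of all genes: SYN1 (fold 1.29 (95% interval 1.02 to 1.63)) and VAMP2 (1.20 (95% interval 1.01 to 1.42)). SYN1 had 3065, 3902 and 4655 normalized reads in VHD animals, 2649, 3860.2 and 4615 in HD animals, 2773, 3068, 3626, 4021 and 5067 in BD animals, and 2088, 2857 and 4085 in LD animals, the highest BD value being that of the shallowest library. VAMP2 had 5125, 6175 and 8386 in VHD animals, 4230, 5537 and 6742 in HD animals, 5152, 5560.2, 6027, 6367 and 6686 in BD animals, and 4129.6, 5425 and 6335 in LD animals. BD and LD ranges overlapped for both. Neither passed without the 3 shallowest libraries, nor without BD replicate 1 or 2 or LD replicate 1, 3 or 4 alone, all of cohort 4. Without BD replicate 1 the log2 fold change was 0.24 in place of 0.37 for SYN1 and 0.20 in place of 0.26 for VAMP2. VAMP3 (1.20 (95% interval 0.979 to 1.46)), STX10 (0.862 (95% interval 0.720 to 1.03)) and STX17 (0.893 (95% interval 0.773 to 1.03)) followed. All 12 myelin markers had a higher fitted value in BD than in LD animals here too, with a median log2 fold change of 0.29.

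Cohorts, which differ in age and in the mix of categories, were compared with an F test that kept the drinking category as a term. No release gene and none of 13022 genes (0%) passed the adjusted threshold in limma, where edgeR called 0 genes and DESeq2 19, none a release gene. At an unadjusted p under 0.05, 9 of 62 release genes (14.5%) and 1225 of all genes (9.41%) were found, among them SYT6, UNC13B, CPLX2, RIMS2, SYT14, SYT2, SV2C and SYT10, with adjusted limma p-values from 0.409 to 0.481. RIMS2, which scaffolds the active zone, was highest in cohort 4 (4966 ± 700.1, SD, n = 8), which has the oldest animals and the 3 shallowest libraries, and averaged 4126 ± 340.1, 4205 ± 616 and 4361 ± 332 in cohorts 5, 7a and 7b (n = 7, 8 and 5). UNC13B averaged 1862 ± 581 and 1829 ± 434 in cohorts 4 and 7a, against 1379 ± 257 and 1394 ± 103 in cohorts 5 and 7b. CPLX2 and SYT6 were highest in cohort 7b (2452 ± 1047 and 517 ± 145), with LD replicate 8 the highest of all 28 animals in both. Among marker lists, 7 of 10 striatal and 6 of 10 GABAergic markers had an unadjusted limma p under 0.05 between cohorts. Age, cohort and the dissected tissue cannot be told apart here.

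**Figure D5:**
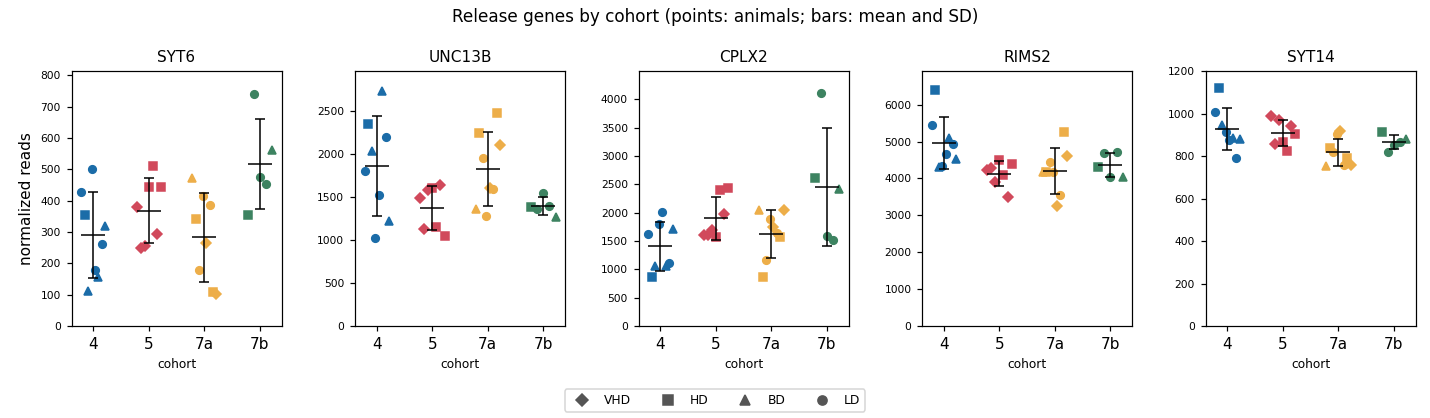
Normalized reads of 5 release genes with an unadjusted limma p under 0.05 between cohorts; points are animals, with the marker showing the drinking category, and bars are mean and SD. RIMS2 has its highest mean in cohort 4, and in cohort 7b the same LD animal is highest for CPLX2 and SYT6.

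Whether the difference between heavy and low drinkers itself varied between cohorts was tested over the 21 animals of cohorts 4, 7a and 7b. No release gene and none of 13022 genes (0%) passed. Unadjusted, 3 release genes (4.84%) and 608 of all genes (4.67%) did: SYT10 (limma p = 0.0235), SYT3 (0.0280) and STX17 (0.0496). For SYT3 the log2 difference of heavy from low drinkers was -0.65, 0.05 and -0.11 in cohorts 4, 7a and 7b, and for STX17 it was 0.61, 0.01 and 0.09. The value of cohort 4 rests on a single heavy drinker, HD replicate 1, whose library is one of the shallowest.

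Several release genes are made as alternative splice forms, and relative exon use was therefore compared between heavy and low drinkers in genes with at least 3 measured exons. Of 56 release genes none passed the adjusted threshold of limma's diffSplice F test, where 9 of 9817 genes did (0.0917%). Unadjusted, 3 release genes (5.36%) and 170 of all genes (1.73%) passed: STXBP3 (p = 0.00987), a Munc18 relative of surface trafficking, STX18 (p = 0.0350), a syntaxin of the endoplasmic reticulum, and STX6 (p = 0.0353), an endosomal syntaxin. VAMP1 (p = 0.170) and CPLX1 (p = 0.174) followed, and SNAP25, whose exons include an alternative pair, had p = 0.996 over 8 exons in diffSplice. The largest single difference was a 50-base exon of STXBP3 at chr1:109348210-109348259, whose use relative to the other exons was lower in heavy drinkers by a log2 value of -0.97 with a mean of 19.1 normalized reads. Under Simes' method, which weighs the single best exon, STXBP3 passed (adjusted p = 0.0112, limma) among 103 genes. With only exons that reached 50 in at least 5 libraries, the diffSplice F test gave STXBP3 an unadjusted p of 0.268. None of the 44 release genes left then passed unadjusted. Without HD replicate 5, or without LD replicate 6, no release gene passed unadjusted either. Without the 3 shallowest libraries, the unadjusted p of STXBP3 in that test was 0.00184.

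Other genes of the vesicle cycle were counted in 4 lists. In heavy against low drinkers no gene of these lists passed limma over all genes. The background over all genes was 50% in each direction, and at an unadjusted p under 0.05 it was 1.9% higher and 2.27% lower. Of 15 active zone and calcium channel genes 12 (80%) had a higher and 3 a lower fitted value, and 1 (6.67%) was lower at an unadjusted p under 0.05, LIN7B (fold 0.819), a scaffold protein. Of 24 regulators of SNARE recycling and release 16 (66.7%) were higher and 8 lower, none at an unadjusted limma p under 0.05. Of 21 genes for the vesicle membrane and its filling 7 (33.3%) were higher and 14 lower, and 3 (14.3%) passed unadjusted, all lower: SLC32A1, the transporter that loads GABA into vesicles (fold 0.623, limma p = 0.00838), GAD2, an enzyme that makes GABA (0.688), and SYNPR, a vesicle membrane protein (0.780). Of 22 endocytosis genes 17 (77.3%) were higher and 5 lower, with 1 (4.55%) passing unadjusted, the scaffold ITSN1 (fold 1.11). SLC32A1 and GAD2 are also GABAergic markers, so they add nothing independent to that list. The median log2 fold changes of the 4 lists were 0.04, 0.04, -0.04 and 0.05, against 0.00 over all genes.

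In VHD against LD animals, 3 of the 24 regulators (12.5%) were higher at an unadjusted limma p under 0.05, as were 4.2% of all genes, and 1 (4.17%) was lower, as were 4.37%. The higher ones were SYTL4, a Rab27 effector of granule docking (fold 2.11), RAB3A, the main Rab of synaptic vesicles (1.29), and its effector RPH3A (1.87), with adjusted p-values from 0.531 to 0.542. In BD against LD animals, RAB3A (fold 1.21) and ATP6V0C, a subunit of the pump that acidifies vesicles (fold 1.25), had the smallest limma p-values of their lists (0.0245 and 0.00733), and their adjusted p was 0.9999.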

How the data were processed

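Libraries were stranded and depleted of ribosomal RNA, per the labels' protocols. The submitters' processing notes list edgeR, STAR 2.3.0e, CASAVA and FastQC with no role for any of them. Neither build nor annotation is given in the sources used here. Values in the authors' gene table are a signal: reads on a gene's exons multiplied by 1 factor for the library, called normalized reads. Values in the authors' exon table are a score, namely those reads per exon after rounding, as deposited. Each table has 30 columns, and 2 were not used here. In each gene column used, 100% of values lay within 0.02 of a whole number of reads once the factor was divided out, so reads were recovered for edgeR and DESeq2.

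Genes that reached 10 in 5 or more libraries were tested on log2(value + 1), so folds of low genes are understated, with limma 3.58.1 (trend) in R 4.3.3, two-sided, with cohort as a term and Benjamini-Hochberg adjustment over all 13022 genes at 0.05. edgeR 4.0.16 (quasi-likelihood) called 0 genes in all 4 drinking comparisons and DESeq2 1.42.0 called 1, 4, 1 and 0 (heavy vs low, VHD, HD and BD vs LD). Exon use was tested with diffSplice in limma, and correlations by 100000 permutations in Python 3.11.15. A marker score is the mean of the log2 values of a list's genes, each centred over the libraries. Fits were tested on simulated reads with known changes.

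Animals were grouped by the labels' drinking category. The members, lists, tests and relations were chosen with earlier results of these data known. The text names SNAP25, STX1A, VAMP1, VAMP2, SYT1, SYT2, SYN1, SYN2, SV2A to SV2C, CPLX1 to CPLX3, RIMS1 and UNC13B in heavy vs low, the 5 lowest p of each comparison, the 5 most and 5 least variable, and up to 3 genes per pathway list. Genes outside that rule, named beside levels and the glutamatergic score, and the gap of SYT16 were picked with their values in view. Some genes of the set are counted but not reported here by name. No sequence is printed, since none was at hand. Alternatives were other pseudocounts, filters and scalings, other tests, marker scores as terms, age in place of cohort, subsets of cohorts and libraries, and leaving out each animal.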

Additional observations from a re-analysis of the deposited data

Results flagged for a closer look

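In 64 groups of 5 to 10 animals (16 release genes in 4 categories), 5 had a highest or lowest value set apart from the rest by more than Dixon's critical value; chance flags about 1 in 20 groups, or 3.2 of 64. VHD replicate 6, of cohort 7a, held 3630.5 normalized reads of STX1A (nearest VHD animal 1708) and 10171 of SV2B (nearest 4428), and its glutamatergic score was 1.77, the highest of the 6 VHD animals. HD replicate 6, of the same cohort, held 6126 of RIMS1 (nearest 4784). HD replicate 4, of cohort 5, held 183 of CPLX3 (nearest 122.8). LD replicate 8, of cohort 7b, held 4111 of CPLX2 (nearest 2019) and had the lowest SV2B and the highest SYT2 of all 28 blocks (933 and 1878). The causes were not tested.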

How the results depend on the processing

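In the 4 drinking comparisons, the count of release genes called stayed at 0 under each pseudocount, filter, scaling, test, covariate and subset tried, and without each animal. Over all genes, DESeq2 called 1 (heavy vs low), 4 (VHD vs LD), 1 (HD vs LD) and 19 (cohorts) where limma called 0; age in place of cohort gave 1 in HD vs LD, the pan-neuronal, astrocyte and myelin scores gave 4 for cohorts, and no filter gave 48 for the interaction with cohort. For exon use, Simes' method gave 1 release gene and 103 genes, and a pseudocount of 8 gave 4 genes, against 9. An exon filter of at least 50 in at least 5 libraries gave 0 release genes and 8 genes of 5996 tested. Of the 6 relations with marker scores, 5 passed over all animals, 3 within cohort 4, 0 within cohort 5 and 2 within cohort 7a, with fewer animals each; the sign turned within cohort 5 for SYT2 (r = 0.521) and SV2C (r = -0.650) and within cohort 7a for CPLX3 (r = 0.239).

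Leaving out 1 animal gave 0 to 1 genes in VHD vs LD (1 without VHD replicate 6) and HD vs LD (1 without HD replicate 5), 0 to 1 release genes and 0 to 40 genes between cohorts (without LD replicate 2), and 6 to 16 genes in exon use (16 without BD replicate 1, HD replicate 5 or VHD replicate 6; 14 without HD replicate 7). In heavy vs low, leaving out an animal of cohort 5 leaves the folds unchanged, so those 7 runs do not check them. No paired analysis was possible because each animal gave 1 library and the replicate numbers follow accession order.

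For 12 of 16 genes the fold of heavy over low drinkers turned sign under some setting, and the cause was not tested. The 7 heavy drinkers of cohort 5 enter this fold when age replaces cohort, and do not with cohort as a term. With age in place of cohort the log2 fold change was -0.034 for SNAP25, -0.13 for STX1A, 0.17 for VAMP1, 0.040 for VAMP2, -0.010 for SYT1, 0.062 for SYT2, -0.13 for SYN2, -0.0078 for SV2B and 0.030 for CPLX1. With the glutamatergic, GABAergic and striatal scores, added after seeing the data, it was -0.17 for SNAP25, -0.066 for STX1A, 0.078 for VAMP1, -0.053 for SYT1, 0.14 for SYT2, -0.0074 for SYN1, -0.13 for SYN2, -0.083 for SV2B and 0.084 for CPLX3. The other scores gave 0.0041 for VAMP2. Without the 3 shallowest libraries it was 0.077 for VAMP2 and 0.026 for CPLX1, and in cohort 7a alone 0.18 for VAMP2, 0.031 for SV2A and 0.058 for CPLX1. Without 1 animal each, the ranges that crossed 0 were -0.042 to 0.077 for VAMP2, -0.0045 to 0.10 for SYT1, -0.14 to 0.027 for SYT2, -0.073 to 0.22 for SYN2, -0.023 to 0.027 for SV2A, -0.30 to 0.026 for CPLX1 and -0.23 to 0.10 for CPLX3. Depth limits STX11, STXBP2, VAMP5 and VAMP8, which have 0 to 2 reads in the shallowest library, and CPLX4, with 3 reads or fewer in 3 libraries.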
